A study of Mus musculus with 6 samples.

Results

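On the Affymetrix whole-transcript mouse array, 1551 of 35556 probe sets were annotated with at least 2 different gene symbols and belong to the set described here. A probe set is a group of short probes whose signals are summarised into 1 value. The members were chosen from the platform annotation alone, without any measured value. Of 1621 probe sets with several symbols, 8 repeated the same symbol and were not counted, and 62 with a symbol starting Pramel, Pramef, Usp17l, Tdpoz, Tcstv or Zscan4 were left out. A further 21789 probe sets named 1 gene and 12146 named none.

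RNA came from HM1 cells, an established mouse embryonic stem (ES) cell line, grown in 15% serum with leukemia inhibitory factor (LIF) at 1000 U/ml. The control group (3 arrays) carried the empty pCAGIP.puro vector, and the Prmt6 overexpression group (3 arrays) carried the same vector with mouse Prmt6. Prmt6 is a nuclear enzyme that methylates arginines of histones and other proteins. Both groups went through lipofection and then 3 days of selection with 1 ug/ml puromycin, and each array took 5 ug of labelled total RNA. The samples are pools of transfected cells that survived the drug. The labels do not name separate cultures for the replicates, so the p-values below cover only the spread of these samples, and that spread may be technical.

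Many mammalian gene families hold nearly identical copies, either side by side in a cluster or scattered as retrogenes and processed pseudogenes. Probes to such copies bind the transcripts of all of them, and probes to overlapping transcripts bind those of each gene at the locus. The signal of a shared probe set is therefore a sum that cannot be divided among the genes it names. Several of these copy families, among them the Eif1a-like, Gm428 and Gm4340 families, are known for transcripts that appear at the 2-cell stage of the mouse embryo and in the rare ES cells that resemble it. Dux (Duxf3 in this annotation) is a homeobox factor that activates genes at that stage. In bulk RNA, fewer cells expressing a gene and less RNA of it per cell cannot be told apart.

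The promoters of the leading copy families are shown to make visible how alike the promoters of genes on the same probe set can be. RefSeq promoters (GRCm38.p6, 250 bases before to 50 after the start site) were found for 58 of 84 symbols on probe sets lower with the Prmt6 plasmid and for 24 of 39 symbols on those higher. The promoters of Gm4340 and Gm4301, named together on a lower probe set, and of Duxf3 are shown with matches to GATTNAATC in capitals. This is the core of the sequence that mouse Dux is known to bind, searched on both strands.
Gm4340 promoter (chr10:104193792-104194091, plus strand): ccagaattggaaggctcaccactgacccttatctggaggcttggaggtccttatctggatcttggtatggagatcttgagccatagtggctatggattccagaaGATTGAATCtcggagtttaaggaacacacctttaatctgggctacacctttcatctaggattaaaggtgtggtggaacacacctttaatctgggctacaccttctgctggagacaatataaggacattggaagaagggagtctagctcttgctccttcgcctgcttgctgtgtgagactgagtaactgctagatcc
Gm4301 promoter (chr10:100335426-100335725, plus strand): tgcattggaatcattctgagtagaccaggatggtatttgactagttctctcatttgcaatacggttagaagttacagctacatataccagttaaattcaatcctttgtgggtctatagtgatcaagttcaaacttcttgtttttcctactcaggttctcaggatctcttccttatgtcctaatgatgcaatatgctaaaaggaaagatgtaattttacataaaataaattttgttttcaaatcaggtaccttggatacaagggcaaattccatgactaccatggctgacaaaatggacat
Duxf3 promoter (chr10:58233040-58233339, minus strand): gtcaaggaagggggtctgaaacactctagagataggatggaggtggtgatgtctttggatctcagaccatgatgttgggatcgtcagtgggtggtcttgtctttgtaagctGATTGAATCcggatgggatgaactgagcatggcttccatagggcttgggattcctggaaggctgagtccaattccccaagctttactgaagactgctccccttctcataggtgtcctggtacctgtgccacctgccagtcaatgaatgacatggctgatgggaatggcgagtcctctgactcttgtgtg
The match lay 146 bases before the start site in Gm4340 and 139 bases before it in Duxf3, and Gm4301 had none in this window. Gm21312, Gm21304, Gm21293, Gm8764 and Gm20765, which share the probe set with Gm4340, had the match at the same place, and their promoters were 99.7% to 100% identical to that of Gm4340 without gaps. The promoters of Gm4301 and Gm4340 shared 26% of positions, counted without alignment. A shift of the start site also lowers such a share, so it does not show whether these promoters are unlike. GATTNAATC occurred in 0.268% of 32851 promoters in the table and in 9 of 1521 promoters of genes named by the members (0.592%). At such low shares, the 0 of 35 promoters of genes on higher probe sets is no contrast. Among promoters of genes on lower probe sets, 7 of 76 had it (9.21%). Those 7 were the 6 near-identical copies and Duxf3, so they are not independent matches.

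Gm428 and Gm11758, read by the same 5 probe sets, had promoters 97% identical, shown with the TATA box (TATAAA, both strands) in capitals. Its matches on the 2 strands overlap here, which gives the longer run of capitals.
Gm428 promoter (chr4:73683264-73683563, plus strand): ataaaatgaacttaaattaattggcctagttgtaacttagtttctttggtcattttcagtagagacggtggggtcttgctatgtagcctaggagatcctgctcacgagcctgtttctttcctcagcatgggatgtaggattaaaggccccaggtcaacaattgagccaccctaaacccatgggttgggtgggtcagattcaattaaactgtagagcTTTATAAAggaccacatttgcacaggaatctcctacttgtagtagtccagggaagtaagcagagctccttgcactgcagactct
Gm11758 promoter (chr4:73876217-73876516, minus strand): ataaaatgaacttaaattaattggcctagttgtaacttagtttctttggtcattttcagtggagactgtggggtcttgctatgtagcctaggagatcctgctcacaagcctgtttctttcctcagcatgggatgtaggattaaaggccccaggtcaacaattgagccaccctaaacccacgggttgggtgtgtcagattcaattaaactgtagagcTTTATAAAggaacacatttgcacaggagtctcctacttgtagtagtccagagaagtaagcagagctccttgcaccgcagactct
The other 2 promoters found for this list, Gm11487 and Gm13871, shared 23% to 26.3% of positions with these and with each other, without gaps. No alignment was made, and a shift of the start site lowers such a share. It therefore does not show whether these promoters are unlike. The match nearest the start site began 32 bases before it in Gm428 and Gm11758, 34 in Gm11487 and 64 in Gm13871. TATAAA occurred in 13.6% of all promoters in the table, in 24.6% of those of genes named by the members and in 17.1% of those on lower probe sets. The Actg1 promoter, from a gene on higher probe sets, is shown with the CArG box, the site of serum response factor, in capitals.
Actg1 promoter (chr11:120348446-120348745, minus strand): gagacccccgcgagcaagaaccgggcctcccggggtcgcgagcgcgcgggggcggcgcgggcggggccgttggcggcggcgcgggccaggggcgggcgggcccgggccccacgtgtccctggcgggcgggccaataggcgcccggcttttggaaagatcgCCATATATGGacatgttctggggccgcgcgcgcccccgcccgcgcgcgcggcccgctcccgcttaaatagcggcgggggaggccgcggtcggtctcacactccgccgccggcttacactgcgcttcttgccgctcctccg
This match began 90 bases before the start site. The motif occurred in 1.63% of all promoters, in 2.43% of those of genes named by the members and in 2 of 35 on higher probe sets. A match describes the letters in the window and was not tested as a binding site.

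The members named 67 microRNA genes, of which 37 matched a mature RefSeq sequence. The mature sequences on probe sets that passed the test are shown with the seed (bases 2 to 8) in capitals, from Mir410 on a lower probe set and from Mir692-2 and Mir692-3, whose mature form is identical, on higher ones.
mmu-miR-410-5p: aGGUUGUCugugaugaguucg
mmu-miR-410-3p: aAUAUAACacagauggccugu
mmu-miR-692: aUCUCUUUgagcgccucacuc
The arrays label total RNA and the probe sets also name the host or neighbouring transcript, so these values are not levels of the mature microRNAs.

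Prmt6 itself, read by its own probe set, had log2 signals of 6.84, 6.58 and 7.12 in control and 7.32, 7.40 and 7.33 with the plasmid. The groups did not overlap. The difference of 0.50 ± 0.14 (SE of the log2 difference, 3 arrays per group) did not pass over all probe sets (limma adjusted p = 0.112). The place of this probe set relative to the cloned sequence was not examined. All 10 ES cell markers were measured; 0 rose and 2, Nanog and Tdgf1, fell, and the mean level of the list was 10.4 to 10.5 in control arrays and 10.4 in plasmid arrays. Of 10 fibroblast markers, 4 rose (Col1a1, Col1a2, Pdgfrb and Fn1) and 0 fell, with a mean level of 5.61 to 5.72 in control and 6.12 to 6.29 with the plasmid, and Lum was the lowest at 2.62. The part of other cell types in the differences below was not tested. Array medians were 5.60 to 5.62 in control and 5.54 to 5.59 with the plasmid.

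With the Prmt6 plasmid, 28 of the 1551 shared probe sets rose and 48 fell (limma over all 35556 probe sets, Benjamini-Hochberg adjusted p under 0.05). Over all probe sets 5.05% passed, 3.04% higher and 2.01% lower, against 4.90% of the members, 1.80% higher and 3.09% lower. The total share was thus near that of the whole array. Among probe sets naming 1 gene, 962 rose and 375 fell, and among unnamed ones 90 rose and 253 fell. With arrays centred on their medians the members split into 44 higher and 42 lower, or 51.2% of calls higher against 36.8% as deposited. The median difference over all probe sets was -0.02 as deposited, 0.03 after centring and 0.01 after quantile normalization, and that over the members was -0.03, 0.02 and -0.02.

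In all 76 the arrays of the 2 groups did not overlap, which also held for 31.0% of the members and 26.1% of all probe sets. Probe sets that share a list of genes are not independent. The 1551 members carried 777 distinct lists, 276 of them on more than 1 probe set, and 229 members had values identical to those of another member. Joined through shared genes, the 28 rises came from 17 groups of genes and the 48 falls from 20, and 0 groups held both directions. Counted by probe set, 18 fell by more than 1 on the log2 scale and 6 rose by more than 1. Repeats of a list count more than once in these numbers, so they do not show that falls were larger in general. Of the 76 calls, 32 held when any 1 array was left out, 24 lower and 8 higher, and 21 were lost in each of the 6 such fits. The 8 were Loxl2/Gm21451, the 3 Sprr2a probe sets, Tpm4/Gm7809, Cdkn1a/4930567H12Rik, Prn/Prnd and Gnas/Gnasas1.

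**Figure D1:**
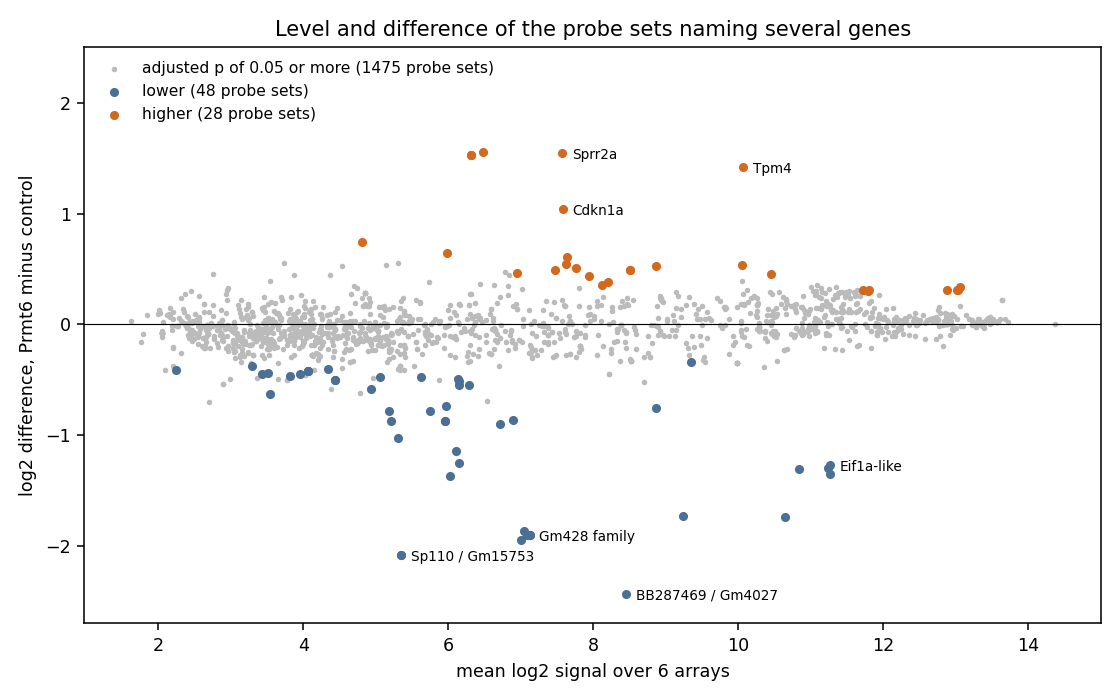
Mean log2 signal over the 6 arrays (x axis) against the log2 difference, Prmt6 plasmid minus control (y axis), for the 1551 probe sets naming several genes. Grey points are the 1475 that did not pass, blue the 48 lower and orange the 28 higher; the BB287469/Gm4027 probe set lies lowest at -2.44 and Loxl2/Gm21451 highest at 1.55.

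The lowest of all was the probe set of BB287469 and Gm4027, genes that encode close relatives of the translation initiation factor Eif1a. Its log2 signals were 9.80, 9.47 and 9.73 in control and 7.60, 7.39 and 6.70 with the plasmid, a difference of -2.44 ± 0.24 or 5.41-fold lower (limma adjusted p = 0.00371). Every plasmid array lay at least 1 log2 unit below every control array. A further 4 probe sets named these genes together with Eif1a, Gm21319, Gm2022, Gm8300, Gm5662 and Gm5039. All 4 fell, by 1.27 to 1.35, and the one that moved most gave 11.98, 11.88 and 11.96 in control against 10.58, 10.71 and 10.47. These were among the brightest signals of the falling probe sets in both groups.

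The genes on this list with a probe set of their own did not behave alike. Gm5662, read alone, gave 9.60, 9.50 and 9.59 in control and differed by -2.30 ± 0.13 (limma adjusted p = 0.000439). Gm5039, read alone, differed by -1.69 ± 0.19 (limma adjusted p = 0.00617). The widely expressed gene Eif1a, read alone, differed by 0.04 ± 0.081 (adjusted p = 0.841), with control values of 9.25, 9.15 and 9.21. The fall on the shared probe sets was thus present on the probe sets of the copies and not detected on that of Eif1a itself; the difference between these probe sets was not tested. The 5 calls held when any 1 array was left out.

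All 5 probe sets naming Gm428, Gm11238, Gm11487, Gm11758 and Gm13871 fell, by 1.86 to 1.94, with SE of 0.064 to 0.074 (limma adjusted p 0.000114 to 0.00014). Their control arrays lay between 7.89 and 8.11 and their plasmid arrays between 5.95 and 6.18. The largest change was 7.99, 7.91 and 8.01 in control against 6.05, 5.95 and 6.08. The falls were 3.64- to 3.85-fold, many times the spread within either group, and 2 of the 5 probe sets had identical values. Gm11487 also had its own, dim probe set, which differed by -0.36 ± 0.22 (limma adjusted p = 0.434).

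Both probe sets of the Gm4340 family, whose promoters are shown above, fell. They name only predicted genes and were singled out by their values. The one naming 9 genes (Gm4340, Gm21312, Gm21304, Gm21293, Gm4312, Gm4301, Gm8764, Gm20765 and Gm6763) gave 11.52, 11.51 and 11.53 in control and 9.76, 9.69 and 9.88 with the plasmid. The difference was -1.74 ± 0.075, or 3.35-fold lower (limma adjusted p = 0.000181). The other, naming 13 genes, differed by -1.73 ± 0.063. These controls varied by about 0.01 to 0.03 (SD), far less than the difference.

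The Dux-type homeobox genes were read by 6 probe sets in 2 families, and all 6 were lower. The 3 Duxbl1/Duxbl2 probe sets fell by 0.74 to 0.87; 2 of them had identical values of 6.39, 6.48 and 6.29 in control against 5.58, 5.55 and 5.42. The 3 Duxf3/Gm9919 probe sets fell by 0.50 to 0.55, from 6.50, 6.48 and 6.29 to 5.80, 5.91 and 5.92 on the one that moved most. The Duxbl calls held without any 1 array. The 3 Duxf3 calls were lost without control replicate 1 or 2 or without any 1 plasmid array, with adjusted p of 0.0567 to 0.111 (limma), and held without control replicate 3. Gm9919, read alone, differed by 0.16 ± 0.18 (adjusted p = 0.695). Among other families of early-embryo and oocyte homeobox genes, 0 of 5 Obox probe sets (-0.19 to 0.04) and 0 of 3 Cphx probe sets (0.17 to 0.18) passed.

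Trim43a, Trim43b and Trim43c, tripartite-motif genes of the preimplantation embryo, shared 1 probe set at 5.32, 5.31 and 5.24 in control and 4.64, 4.85 and 4.95 with the plasmid (-0.48 ± 0.096, limma adjusted p = 0.0467). The arrays did not overlap, but the call was lost without any 1 array (adjusted p 0.0555 to 0.166).

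Sp110, an interferon-induced nuclear body protein, and its relative Sp140 were named on 8 probe sets together with predicted copies, and 6 of the 8 fell. The 2 probe sets naming Sp110 and Gm15753 had identical values, 6.48, 6.37 and 6.33 in control and 4.61, 4.30 and 4.02 with the plasmid. Their difference was -2.08 ± 0.15, or 4.24-fold lower (limma adjusted p = 0.00119). The probe set that adds LOC102638047 fell by 1.26, and that naming C130026I21Rik and 2 further copies fell by 1.14, from 6.73, 6.61 and 6.69 to 5.65, 5.51 and 5.45. A probe set of 5 of these symbols fell by 0.78.

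The change was smaller where Sp140 was on the list. The probe set naming 9 symbols, Sp140 among them, fell by 0.40 ± 0.073 (limma adjusted p = 0.0332), and its call was lost without any 1 array (0.0744 to 0.137). The 2 probe sets naming Sp140 without Sp110 differed by -0.21 and -0.19 and did not pass (adjusted p 0.283 and 0.215). Their signals were low in both groups, from 3.86 to 4.36. The probe set of Sp140 alone differed by -0.62 ± 0.27 (adjusted p = 0.287). Whether the Sp110 and Sp140 lists differ from each other was not tested. Of 10 probe sets for interferons and interferon-induced genes, 0 passed and 2 had p under 0.05 unadjusted.

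**Figure D2:**
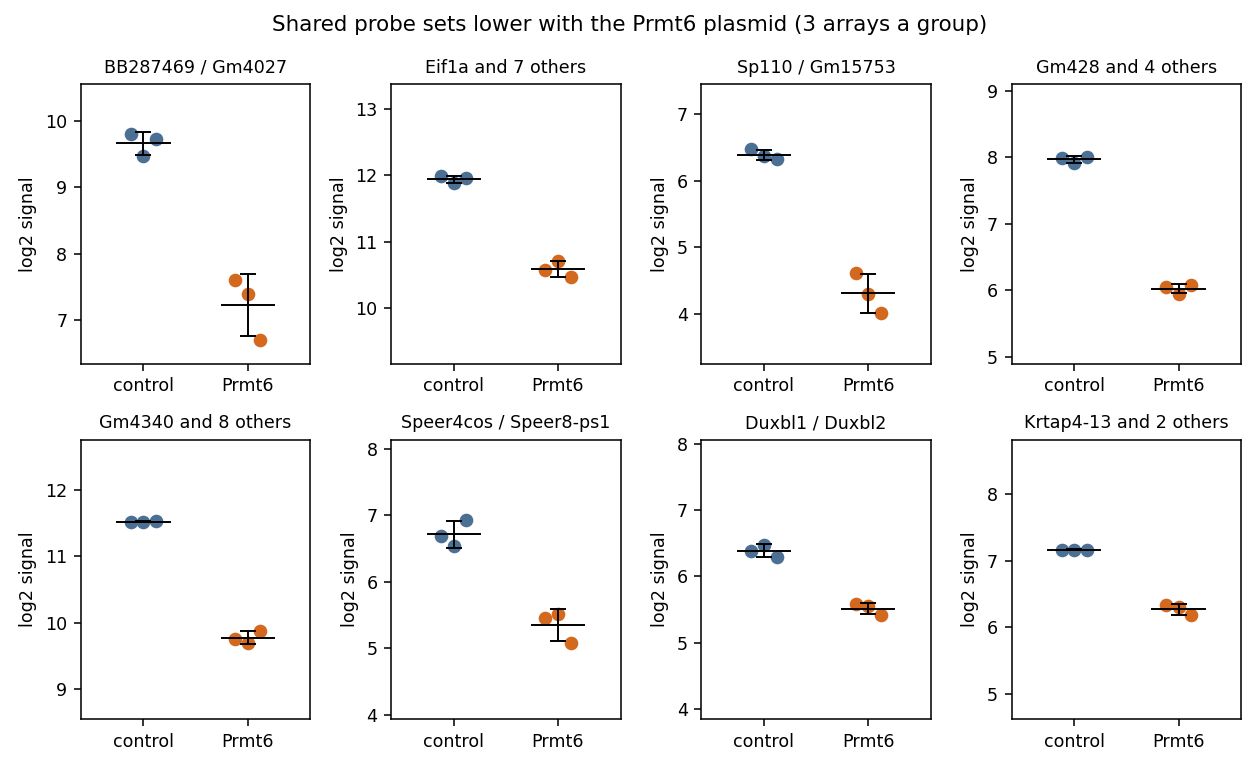
Log2 signal (y axis) of 8 probe sets lower with the Prmt6 plasmid, each named above its panel, in 3 control arrays (blue) and 3 Prmt6 arrays (orange); horizontal lines are means and error bars SD, n = 3. The y axes span the same number of log2 units but start at different levels; in each panel the groups do not overlap, with differences from -2.44 (BB287469/Gm4027) to -0.87 (Duxbl1/Duxbl2).

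Speer genes encode glutamate-rich proteins of the testis. Of 13 Speer probe sets, 1 passed, that of Speer4cos, Speer8-ps1 and Gm30417, at 6.68, 6.53 and 6.93 in control and 5.45, 5.51 and 5.07 with the plasmid (-1.37 ± 0.16, limma adjusted p = 0.00681). The other 12 did not pass, and the median difference of the 13 was -0.11. Krtap4-13, Gm11554 and Gm11569, keratin-associated proteins of hair, shared 2 probe sets that fell by 0.90 and 0.86. The one that moved most was at 7.17, 7.16 and 7.17 in control and at 6.33, 6.30 and 6.18 with the plasmid (limma adjusted p = 0.00156). The probe set of 11 other Krtap4 cluster genes differed by -0.38 ± 0.1 and did not pass (limma adjusted p = 0.097).

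Mirg, a noncoding host transcript of the imprinted Dlk1-Meg3 region, and Mir410 shared a probe set at 5.94, 5.75 and 5.75 in control and 4.84, 5.02 and 4.50 with the plasmid. It fell by 1.03 ± 0.14 (SE, limma adjusted p = 0.0145). The call was lost without any 1 control array (adjusted p 0.0585 to 0.0688) and held without any 1 plasmid array. Transcripts of the same region were read on a probe set of Rian and AF357355, which differed by -0.52 (adjusted p = 0.0666), and on one of Mir433 and 6430411K18Rik, which differed by -0.50 (adjusted p = 0.0616). Neither passed. Of 61 probe sets naming a microRNA gene, 3 rose and 1 fell, and the median difference was -0.08 as deposited, -0.03 after centring and -0.05 after quantile normalization.

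Smaller falls came from several other lists of genes. Both probe sets of Apol7b and Apol7e, apolipoprotein L genes, fell by 0.88 and 0.78, while both of the Apol9 genes differed by -0.003 and 0.09 and did not pass. The first was at 5.74, 5.56 and 5.66 in control and 5.01, 4.61 and 4.71 with the plasmid. Without control replicate 1 both Apol7 calls were lost, and 1 was also lost without control replicate 3 or plasmid replicate 3 (adjusted p 0.0525 to 0.0667). Pisd-ps1/Pisd-ps3, pseudogenes of phosphatidylserine decarboxylase, fell by 0.76 ± 0.076, from 9.26, 9.22 and 9.24 to 8.60, 8.42 and 8.43 (limma adjusted p = 0.00423), and this call held without any 1 array.

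Of 7 probe sets for major urinary proteins, the pheromone carriers of mice, 2 fell by 0.63 and 0.42, with no array above 4. The larger of the 2 calls was lost without control replicate 1 or 2 or plasmid replicate 2 or 3, and the smaller without any 1 array. Of 98 probe sets for olfactory receptors, 1 fell, that of Olfr331, Olfr329, Olfr330, Olfr328, Olfr325 and Olfr224, from 5.07, 5.22 and 5.37 to 4.79, 4.51 and 4.61 (-0.58 ± 0.11, limma adjusted p = 0.0402). It was lost after centring, after quantile normalization and in 5 of 6 fits with an array left out (adjusted p 0.0764 to 0.132). Of these receptors, 4 had their own probe sets, at -0.19 to 0.10, and 0 of those passed. The pair Ganc/Capn3, a glucosidase and a calpain, fell by 0.55, and Il4i1b/Il4i1, an amino acid oxidase, by 0.48. The axonemal dynein genes Dnah7a, Dnah7b and Dnah7c shared 2 probe sets. Of these, 1 fell by 0.45, and the other differed by -0.19 and did not pass. The own probe sets of the Dnah7 genes differed by -0.26 to 0.05, and none passed. The calls of Il4i1b/Il4i1 and Dnah7 were lost without any 1 array, and that of Ganc/Capn3 without any but plasmid replicate 1 (adjusted p up to 0.173 over the 3).

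Probe sets naming only predicted genes numbered 106, and 0 rose while 17 fell (16.0%, beside 2.01% lower over all probe sets). Repeats of a list count more than once in this share. The median difference was -0.22 as deposited, -0.18 after centring and -0.18 after quantile normalization. Beside the Gm428 and Gm4340 families, the falls came from the Gm10662 list (5 of 10 probe sets, with all 10 between -0.50 and -0.42), the Gm21119 list with 4930467E23Rik (4 of 6) and Gm31714/Gm10324 (-0.34). These lists were singled out by their values. The Gm10662 and Gm21119 lists had low signals, with no array above 4.72, and the 10 Gm10662 probe sets held only 5 distinct sets of values. The Gm10662, Gm21119 and Gm31714/Gm10324 calls were lost in at least 4 of the 6 fits with an array left out (limma adjusted p 0.0506 to 0.167).

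Among the rises, the probe set of Loxl2 and Gm21451 changed most. Loxl2 is a lysyl oxidase, an enzyme that cross-links collagen. Its signals were 5.41, 5.86 and 5.84 in control and 7.39, 7.09 and 7.29 with the plasmid, a difference of 1.55 ± 0.15 or 2.93-fold (limma adjusted p = 0.00346). Neither gene had a probe set of its own. Of the 10 fibroblast markers, 4 rose on the same arrays and 6 did not pass. The largest differences were those of Col1a1, Col1a2 and Fn1, at 1.34, 0.98 and 0.99.

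All 3 probe sets of the Sprr2a genes, small proline-rich proteins of the cornified envelope of epithelia, rose. The 2 that name Sprr2a1 and Sprr2a3 had identical values, 5.75, 5.36 and 5.52 in control and 7.17, 7.10 and 6.94 with the plasmid (1.53 ± 0.12, limma adjusted p = 0.00163). The third, which adds Sprr2a2 and Sprr2b, went from 6.96, 6.69 and 6.75 to 8.26, 8.42 and 8.36. Sprr2b, read alone at a low signal, differed by -0.21 ± 0.14 (limma adjusted p = 0.47). The difference between it and the shared probe sets was not tested.

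Tpm4, a tropomyosin that lines actin filaments, and its processed copy Gm7809 shared a probe set at 9.43, 9.32 and 9.33 in control and 10.74, 10.86 and 10.73 with the plasmid. The difference was 1.42 ± 0.074, or 2.67-fold (limma adjusted p = 0.000336), and the probe set of Tpm4 alone gave 1.35 ± 0.063. The cytoplasmic actins Actb and Actg1 shared 4 probe sets, all higher, by 0.31 to 0.33. Their control arrays lay between 12.71 and 12.92 and their plasmid arrays between 13.02 and 13.24, so the groups did not overlap. The probe set of Actb alone differed by 0.20 ± 0.061 and did not pass (limma adjusted p = 0.14). Each actin call was lost without any 1 array (adjusted p 0.0672 to 0.18), and 3 of the 4 after quantile normalization, where the differences were 0.27 to 0.31.

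Tubulins, the subunits of microtubules, were read on 5 probe sets, of which 1 passed. The probe set of Tubb2a, Tubb2b and Tubb2a-ps2, beta tubulins, rose from 7.57, 7.47 and 7.46 to 7.90, 7.95 and 8.18 (0.51 ± 0.095, limma adjusted p = 0.0366), a call lost without any 1 array (0.0526 to 0.138) and after quantile normalization (0.0616). Read alone, Tubb2a differed by 0.11 (adjusted p = 0.629) and Tubb2b by 0.33 (adjusted p = 0.16), and neither passed. The 4 probe sets of the alpha tubulins Tuba1 differed by 0.08 to 0.10 and did not pass. The difference between the 2 kinds of tubulin was not tested.

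The probe set of Cdkn1a, the cyclin-dependent kinase inhibitor p21 and a p53 target, also named 4930567H12Rik. It gave 6.97, 7.11 and 7.11 in control and 8.15, 8.19 and 7.96 with the plasmid, 2.05-fold higher (1.04 ± 0.09, limma adjusted p = 0.00233). Neither gene had a probe set of its own, so this value stands without a second reading. The rise was many times the SD of 0.081 in control and 0.12 with the plasmid.

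Of 96 probe sets whose 2 genes overlap, 3 rose and 2 fell (3.125% and 2.083%). These shares were near those over all probe sets, 3.04% higher and 2.01% lower. The falls, Mirg/Mir410 and Il4i1b/Il4i1, are given above. Prn/Prnd, at the locus of the prion protein and its relative doppel, rose from 4.51, 4.52 and 4.27 to 5.25, 5.14 and 5.13 (0.74 ± 0.094, limma adjusted p = 0.0102), while Prn read alone differed by 0.12 ± 0.14. Gnas, the stimulatory G protein subunit of an imprinted locus, and its antisense transcript Gnasas1 rose from 7.35, 7.35 and 7.31 to 7.97, 7.93 and 7.92 (0.60 ± 0.062, limma adjusted p = 0.00449). The retrogene Utp14b and its host Acsl3, an acyl-CoA synthetase, rose by 0.55 ± 0.086 (limma adjusted p = 0.0216). The value does not tell which gene of a locus changed.

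Pakap/Akap2, kinase-anchoring proteins, rose by 0.65 ± 0.079 (limma adjusted p = 0.00901), from 5.58, 5.61 and 5.77 to 6.34, 6.25 and 6.31, and the neighbouring Pakap/Palm2 probe set differed by 0.38 (adjusted p = 0.0728). Pakap, read alone, differed by 0.27 ± 0.087 and did not pass (limma adjusted p = 0.151). The Utp14b/Acsl3 call was lost without any 1 control array or without plasmid replicate 2 (adjusted p 0.0785 to 0.0986), and the Pakap/Akap2 call without control replicate 1 or 2 (0.0511 to 0.0523). Those of Prn/Prnd and Gnas/Gnasas1 held without any 1 array.

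Enzymes and surface proteins with near copies rose by less. The 2 probe sets of H2-K1 and H2-D1, the heavy chains of class I histocompatibility molecules, rose by 0.49 and 0.47, the first from 7.14, 7.29 and 7.23 to 7.75, 7.74 and 7.65. The other 6 probe sets of this complex did not pass. Ubiquitin-type conjugating enzymes rose on the probe sets of Ube2f/Gm5434 (0.53 ± 0.067, from 8.59, 8.61 and 8.60 to 9.08, 9.11 and 9.20, limma adjusted p = 0.00989) and on 1 of the 2 of Ube2l3/Gm6098 (0.45 ± 0.075). The other Ube2l3/Gm6098 probe set differed by 0.39 ± 0.1 and did not pass (limma adjusted p = 0.0949). Ube2l3 had 3 probe sets of its own, at 0.34 to 0.44, of which 1 passed, and Ube2f alone differed by 0.31 (adjusted p = 0.109).

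Phgdh, the enzyme that opens serine synthesis, rose by 0.44 on the probe set it shares with Gm6756 and by 0.57 on its own. The 3 Fam177a/Fam177a2 probe sets rose by 0.49 to 0.53, the largest from 9.84, 9.77 and 9.74 to 10.47, 10.22 and 10.26. The 2 probe sets of Ndufb4 and Ndufb4b, subunits of respiratory complex I, rose by 0.38 and 0.35. Of the 4 probe sets naming Ftl1, the ferritin light chain, with Mir692-2 and Mir692-3, 3 rose by 0.30 to 0.31, one from 11.54, 11.56 and 11.58 to 11.88, 11.86 and 11.87, and Ftl1 alone rose by 0.31. The H2-K1, Ube2l3, Ube2f, Phgdh, Fam177a, Ndufb4 and Ftl1 calls were each lost in at least 3 of the 6 fits with an array left out, with adjusted p up to 0.186, and all 3 Ftl1 calls were lost after quantile normalization.

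**Figure D3:**
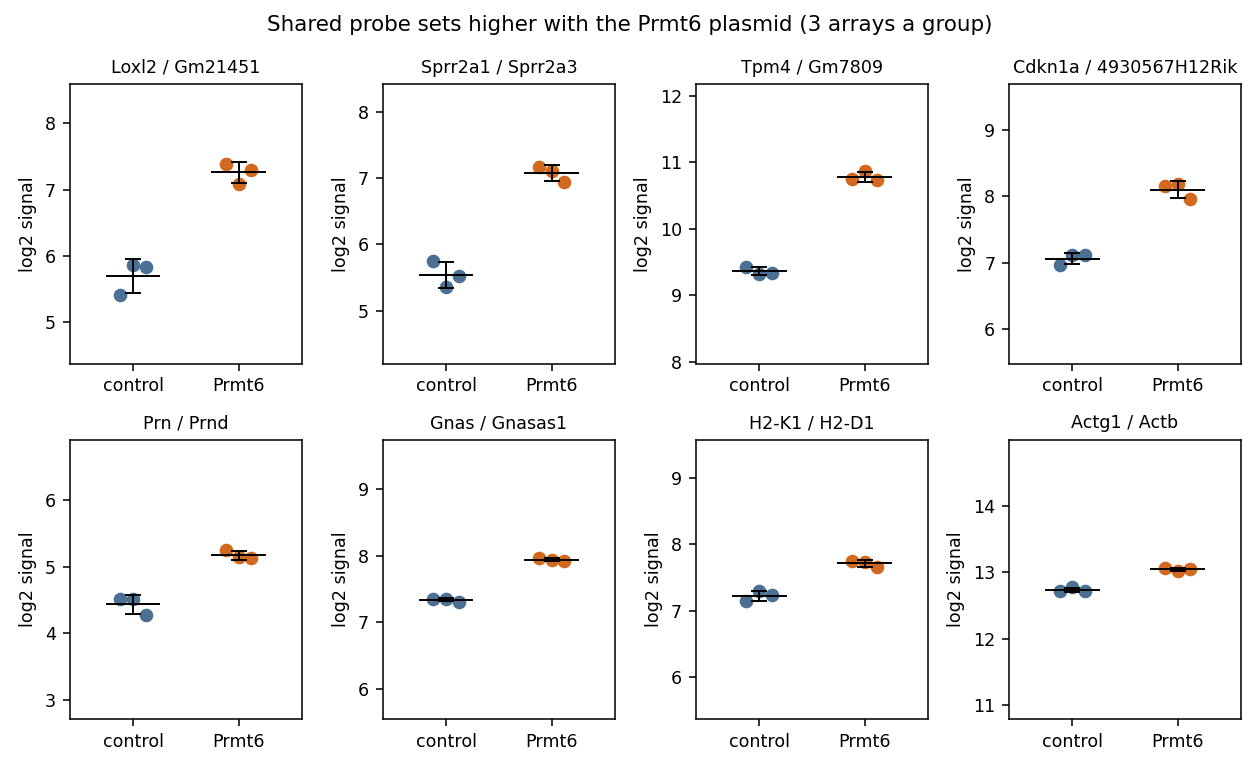
Log2 signal (y axis) of 8 probe sets higher with the Prmt6 plasmid, each named above its panel, in 3 control arrays (blue) and 3 Prmt6 arrays (orange); horizontal lines are means and error bars SD, n = 3. The y axes span the same number of log2 units but start at different levels; the groups do not overlap, with differences from 1.55 (Loxl2/Gm21451) to 0.31 (Actg1/Actb).

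Most large copy families showed 0 calls. Over the whole array 19.8% of probe sets had p under 0.05 unadjusted, and the unadjusted counts below are to be read beside that share. The 239 probe sets naming a ribosomal protein gene had signals around 11.6 and 0 passed; 49 (20.5%) had p under 0.05 unadjusted, near the share of the array, and the median difference was 0.07 as deposited, 0.12 after centring and 0.04 after quantile normalization. Within them, 35 probe sets naming Rpl29, a protein of the large ribosomal subunit, lay between 0.16 and 0.35, with 34 at p under 0.05 unadjusted and a smallest adjusted p of 0.0617. The 32 naming Rpl21, of the same subunit, lay between -0.03 and 0.10, with 0 at p under 0.05 unadjusted.

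Gapdh, the glycolytic dehydrogenase, and its processed copies were named on 25 probe sets with signals of 12.3 to 13.8 on every array. Their differences lay between -0.003 and 0.04, with 0 calls and 0 at p under 0.05 unadjusted. The chromatin protein Hmgb1 was named on 34 probe sets, with 0 calls, 3 at p under 0.05 unadjusted and a median of -0.07. The smallest p was that of Hmgb1 with Gm5176 alone, at 8.54, 8.49 and 8.58 in control and 8.24, 8.36 and 8.01 with the plasmid (-0.33 ± 0.1, limma adjusted p = 0.144). In the 32 where several symbols share the Hmgb stem, the median of -0.07 was -0.03 after centring and -0.14 after quantile normalization. Among those 32 the smallest p was that of Hmgb1, Hmgb1-rs17 and Gm5176 (-0.29 ± 0.11, limma adjusted p = 0.218).

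Histones were named on 40 probe sets. The 26 probe sets naming replication-dependent core histones such as H3c1, H2bc6 and H2ac23 lay between -0.19 and 0.04, with 0 calls and 0 at p under 0.05 unadjusted. The 14 naming H2al1 or H2al2 genes, X-linked H2A variants of the testis, lay between -0.42 and -0.11; 0 passed and 9 had p under 0.05 unadjusted. The difference between the 2 types was not tested. One of the H2al probe sets gave 5.62, 5.41 and 5.53 in control and 5.10, 5.08 and 5.24 with the plasmid (-0.38 ± 0.087, limma adjusted p = 0.0677). The median of all 40 histone probe sets was -0.03 as deposited, 0.02 after centring and -0.06 after quantile normalization.

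All 25 zinc finger probe sets had negative differences, with a median of -0.22 (-0.17 after centring and -0.25 after quantile normalization), and 16 (64.0%) had p under 0.05 unadjusted, but 0 passed. Zinc finger genes encode DNA-binding proteins, many of them in large clusters. Receptor clusters were dim. Of 65 vomeronasal receptor probe sets 0 passed and 2 had p under 0.05 unadjusted, and the olfactory median of -0.04 turned to 0.01 after centring and after quantile normalization. The vomeronasal probe set of Vmn1r41 and Vmn1r53 had the smallest p, with a difference of -0.35 ± 0.093 (limma adjusted p = 0.103).

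Of 58 probe sets for immunoglobulin and T cell receptor segments, 0 passed and 7 had p under 0.05 unadjusted. The smallest p belonged to Trav7-4 and 3 related segments, from 5.07, 5.07 and 5.16 to 4.81, 4.93 and 4.85 (-0.24 ± 0.07, limma adjusted p = 0.131). Of 43 probe sets for small nucleolar and other small RNAs, 0 passed and 2 had p under 0.05 unadjusted, both naming Rn7s1 and Rn7s2, the RNA of the signal recognition particle (0.22 ± 0.077, limma adjusted p = 0.18). The 24 probe sets of X- and Y-linked multicopy genes had 0 calls and 1 at p under 0.05 unadjusted.

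**Figure D4:**
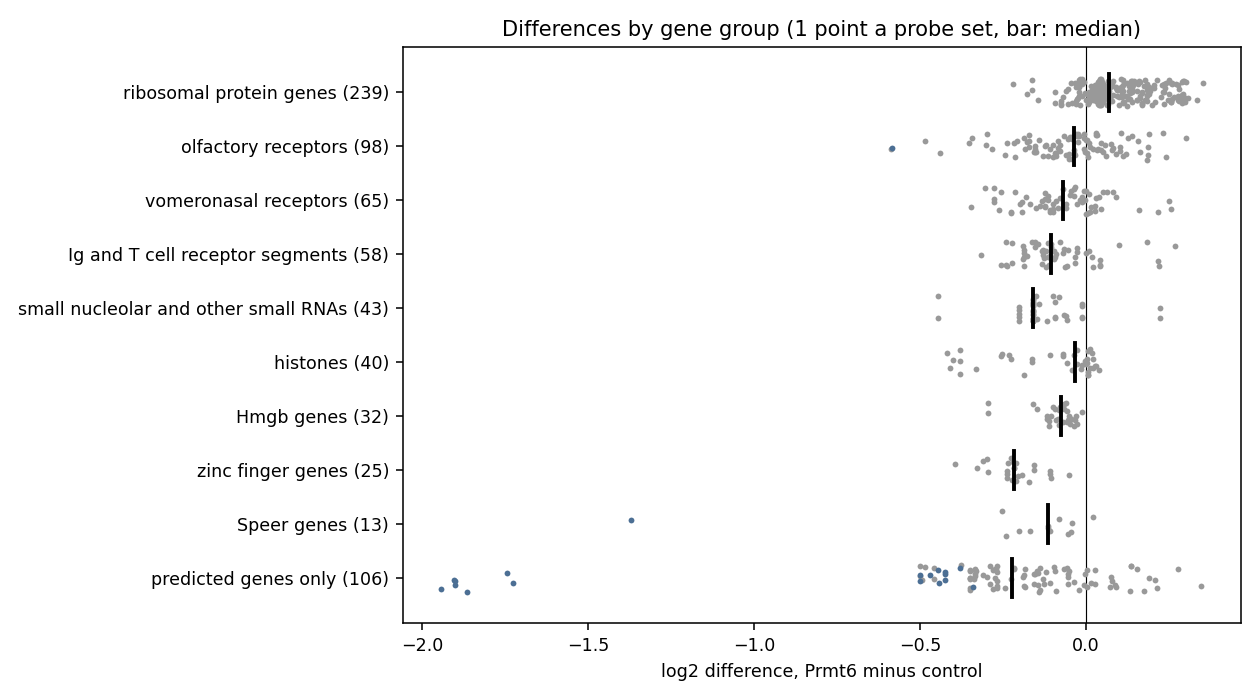
Log2 difference, Prmt6 plasmid minus control (x axis), of each probe set in 10 gene groups (rows, with the number of probe sets); black bars are medians, blue points passed the test as lower and grey points did not pass. The medians of the ribosomal protein and predicted-only groups lie on opposite sides of 0, at 0.07 and -0.22, while both groups have points on each side. The passing points lie in the predicted-only, Speer and olfactory rows.

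Calls were counted by the number of genes named, beside 3.04% higher and 2.01% lower over all probe sets. Of 714 probe sets naming 2 symbols, 21 rose and 16 fell (2.94% and 2.24%), and of 292 naming 3, 6 rose and 7 fell (2.05% and 2.40%). Of 391 naming 4 to 9, 1 rose and 24 fell (0.256% and 6.14%), and of 154 naming 10 or more, 0 rose and 1 fell. Median signals of these 4 classes were 7.02, 6.34, 4.91 and 4.12, so they also differ in level. By position, members whose genes lie on different chromosomes (533) had 15 rises and 11 falls (2.81% and 2.06%). Those within 1 Mb of each other (604) had 7 and 22 (1.16% and 3.64%). Those further apart on 1 chromosome (307) had 2 and 13, overlapping pairs (96) had 3 and 2, and the 11 with under 2 genes placed had 1 and 0. Median signals of the first 4 of these classes were 11.1, 4.59, 4.25 and 6.43, so they also differ in level. No test of these differences was made, and repeats of a list count more than once in them.

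Of 1965 distinct symbols on the members, 1346 were named on shared probe sets only and 619 also had a probe set of their own. Among the 76 calls, 32 named at least 1 gene with its own probe set, and 44 named none. The mean over all own probe sets of a list had the same sign as the shared one in 28 of the 32 and the opposite sign in 4; the brightest own probe set alone gave 24 and 8, where 4 of the 8 were the Eif1a lists scored on Eif1a. In 10 of the 32, at least 1 own probe set passed in the same direction, and in 0 did any pass in the opposite one. The 10 include the 4 Eif1a probe sets, all scored on Gm5662 and Gm5039, and 3 Ftl1 probe sets scored on 1 Ftl1 probe set. Repeats of a list thus count more than once in all these numbers. Of all probe sets naming 1 gene, 6.14% passed. The values come from the same arrays and are set side by side without a test.

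**Figure D5:**
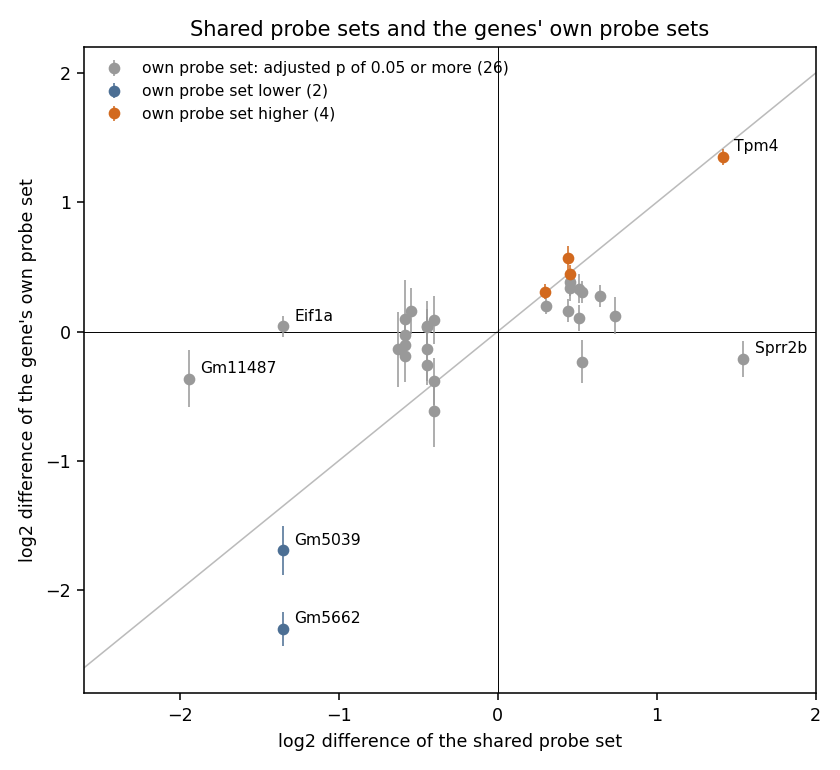
Log2 difference of a shared probe set that passed (x axis) against that of the own probe set of a gene it names (y axis, error bars SE, n = 3 per group), with the line of equal values in grey; an own probe set shared by several lists is drawn once. Of the 32 own probe sets, 4 passed as higher (orange), 2 as lower (blue) and 26 did not pass (grey); Tpm4 lies near the line, Eif1a and Sprr2b lie near 0 on the y axis.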

How the data were processed

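Total RNA of 6 samples was measured on 1 array each. The deposited values are log2 signals, which the authors made with RMA (robust multi-array average), per the submitters' processing notes. Its software is not given in the sources used here. RMA makes array distributions alike, so it hides shifts common to most genes. Values ran from 0.84 to 14.38 with 0 missing. Detection calls were not used here, so low values may be background, and precision is limited by 3 arrays a group.

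Symbols came from the platform annotation. Of 6547 gene identifiers on the members, 6517 matched a GRCm38.p6 symbol and 30 did not. That annotation gave names and which genes neighbour each other. Families were assigned where at least 2 symbols fit, and otherwise by shared stem or kind. All 35556 probe sets were fitted with limma 3.58.1 in R 4.3.3 (lmFit, eBayes), two-sided, without covariates or filter, adjusted by Benjamini-Hochberg over all probe sets at 0.05. Fold sizes are 2 to the power of the log2 difference. The procedure was tested on simulated data. Sequences are from RefSeq.

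Named probe sets were the 12 largest rises and 12 largest falls among calls without overlap, with 7 predicted-only probe sets skipped among the falls, plus 1 for each of the 12 groups with the most members. Others named were chosen after their values were seen. The members and lists were chosen with earlier results of these data known. Alternatives were a replicate block, each array left out, filters on dim probe sets, centring, quantile normalization, a trended and robust prior, array weights, adjustment over named probe sets only, stricter thresholds and each linked gene group counted once. Same-numbered samples did not deviate together, with correlations of 0.0004, -0.05 and -0.09. Python 3.11.15, pandas 2.3.3 and matplotlib 3.10.9 were used.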

Additional observations from a re-analysis of the deposited data

How the results depend on the processing

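As deposited, 28 members rose and 48 fell, and 1794 of all probe sets passed. With 1 array left out, 8 to 19 rose and 24 to 39 fell, and 622 to 1333 of all probe sets passed; most calls with small differences were lost. Filters on dim probe sets gave 49 rises and 51 falls at the 30th percentile and 69 and 45 at the median, where 3040 of all probe sets remaining passed. Centring gave 44 rises and 42 falls, quantile normalization 24 and 51, a trended and robust prior 69 and 56, array weights 42 and 60, and adjustment over named probe sets 29 and 53. At an adjusted p under 0.01, 9 rose and 25 fell (596 of all probe sets), and with at least 1.5-fold, 9 and 28 (983). Counting each linked gene group once gave 17 and 20. The cause of these shifts was not tested. Of the 32 named probe sets, 0 changed direction in any setting; the balance of higher and lower calls did turn, to 60.5% higher with the median filter, 55.2% with the trended and robust prior and 51.2% after centring, from 36.8%.

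With the replicate number as a block, 6 members rose and 22 fell, and 499 of all probe sets passed; 28 of the 76 calls held. The labels give the groups the same numbers but do not say that a number marks a shared culture or day, and same-numbered samples did not deviate together (correlations of 0.0004, -0.05 and -0.09).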

Other observations

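Just short of the threshold, 58 members had adjusted p between 0.05 and 0.10 (limma), and those named next were singled out by their values. Both probe sets of Eif4a3 and Eif4a3l1, an RNA helicase of the exon junction complex and its copy, differed by -0.38 and -0.33, one from 10.56, 10.54 and 10.52 in control to 10.29, 10.07 and 10.11 with the plasmid (adjusted p = 0.054). Kifc1/Kifc5b, kinesins of the mitotic spindle, differed by -0.30 ± 0.064 (adjusted p = 0.0543). Oaz1/Oaz1-ps, antizyme of polyamine metabolism and its pseudogene, differed by 0.25 on both of its probe sets. Further from the threshold, the 3 probe sets of the serine protease inhibitors Serpinb9d, Serpinb9e, Serpinb9f and Serpinb9g differed by 0.44 to 0.55 and had adjusted p of 0.14 to 0.167, with plasmid replicate 2 near the control arrays in each. The 22 probe sets of the Mir669 and Mir467 genes had 2 distinct sets of values between them, at -0.28 and -0.08, and 0 passed (adjusted p 0.484 to 0.85), with 0 at p under 0.05 unadjusted. The Eif4a3, Serpinb9, Mir669 and Mir467 differences kept their sign after centring and after quantile normalization.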
